A study of Homo sapiens with 6 samples.

Results

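The genes described here are 10 of the 52408 genes in the table. Among them are the bile acid receptor FXR (gene NR1H4) and its partner repressor SHP (NR0B2). The other 8 genes conjugate bile acids, or transport bile acids or other components of bile. All 10 were taken by symbol from a list of names, and each symbol matched 1 row. The list was drawn up with the outcome of this comparison already known, so how these genes differ between the groups is given as a description, not as evidence about the pathway. RNA was sequenced from HepG2, a human hepatocellular carcinoma line that keeps many hepatocyte traits. Cells had grown for 24 h in medium with ellagic acid (EA, a polyphenol of plants) at 50 µM, or with as much DMSO, the solvent, alone. Each group had 3 libraries. The labels name no genetic change and do not say whether the 3 were separate cultures. The p-values therefore reflect the spread of these libraries, which may be technical.

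Bile acids are made from cholesterol in hepatocytes, joined to glycine or taurine, and pumped across the canalicular membrane into bile. FXR is a nuclear receptor that bile acids activate. Together with the retinoid X receptor it binds inverted repeats in DNA and raises SHP, which lacks a DNA-binding domain and lowers bile acid synthesis. FXR also raises export pumps at both faces of the hepatocyte, and this loop is known for keeping the level of free bile acids in the liver low.

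Promoter sequence is shown for 3 of the genes, because one encodes the receptor itself, one encodes the main canalicular bile acid pump that HepG2 barely expressed, and one encodes a basolateral exporter subunit that rose with EA. The bases run from 250 to 31 before the RefSeq start site on GRCh38.p14, written 5′ to 3′ on the gene's strand. Capitals mark the stretch that shares the most letters with the FXR inverted repeat AGGTCANTGACCT, in which N is any base.
NR1H4, chr12:100503110-100503329, plus strand: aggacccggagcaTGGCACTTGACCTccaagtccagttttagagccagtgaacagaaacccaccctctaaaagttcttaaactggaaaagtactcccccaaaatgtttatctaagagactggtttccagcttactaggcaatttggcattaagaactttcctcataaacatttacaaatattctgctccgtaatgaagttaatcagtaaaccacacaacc
ABCB11, chr2:169031355-169031574, minus strand: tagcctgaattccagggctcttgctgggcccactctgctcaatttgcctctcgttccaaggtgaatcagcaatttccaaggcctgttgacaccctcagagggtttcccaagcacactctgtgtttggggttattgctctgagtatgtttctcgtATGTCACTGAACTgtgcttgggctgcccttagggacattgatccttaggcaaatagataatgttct
SLC51B, chr15:65045137-65045356, plus strand: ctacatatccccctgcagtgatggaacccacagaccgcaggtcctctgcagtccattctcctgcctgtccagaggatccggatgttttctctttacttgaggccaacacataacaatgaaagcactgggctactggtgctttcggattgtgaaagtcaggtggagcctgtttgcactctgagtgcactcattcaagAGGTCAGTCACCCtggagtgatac
The RefSeq table held promoters for 8 of the 10 genes. NR0B2 and ABCB4 had no entry. Matches were sought in windows of all 250 bases before the start, which include the bases left out of the printed stretches. Of the 12 fixed letters of the repeat, which reads the same on both strands, the best stretch matched 8 in NR1H4 and 10 in ABCB11, SLC51B and SLC10A1. It matched 9 in SLC27A5, 8 in SLC51A and BAAT, and 7 in ABCC2. A match of 10 or more letters was held by 0.945% of the 35116 promoter windows of the same length, and one of 8 or more by 46.5%. The stretches in SLC51B and in SLC10A1, which is not printed, hold AGGTCA, the hexamer that nuclear receptors bind. The stretch in NR1H4 holds it on the other strand, as TGACCT. This hexamer was in 4 of the genes' promoters (NR1H4, SLC10A1, SLC51B and BAAT) and in 12.1% of all windows on either strand, and the full repeat with all its letters was in 0 windows. These matches describe letters in these windows, not binding sites.

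Libraries held 22987425 to 25973621 reads assigned to genes in DMSO and 15738089 to 19202292 in EA. Levels are CPM, read counts scaled to a common library size after TMM normalisation. Where a library has 0 reads of a gene, up to 3 reads remain possible, or 0.117 to 0.130 CPM in DMSO and 0.159 to 0.187 CPM in EA. EA replicate 3 lay apart from the other EA libraries on the second principal component (33.78 against -18.54 and -14.19, with 2.49% of the variance). Hepatocyte markers were abundant, with a summed level of 44422 to 46988 CPM in DMSO and 10265 to 11196 in EA, and 6 of 6 were lower with EA. Most of the DMSO sum came from APOB, which fell from 29447 ± 1102 to 3080 ± 692 CPM. The falls were uneven, with log2 fold changes from -4.61 for FGA to -0.52 for TF, and -1.19 for ALB. Of 8 cholangiocyte markers, AQP1 was listed at 0 reads and KRT7, CFTR and SCTR were under 1 CPM in every library. Their summed level, mostly from the other 4, was 2065 to 2114 CPM in DMSO and 1972 to 2193 in EA. Of those 4, KRT19 (400 ± 30.4 to 1282 ± 109 CPM) and SLC4A2 rose and SPP1 (1254 ± 11.0 to 415 ± 110 CPM) and SOX9 fell. Among enterocyte markers SI and SLC10A2 were at 0, and the leukocyte markers PTPRC, CD68 and CD3E were listed at 0 as well. The other leukocyte markers were low. Summed over libraries, CD14 had 124 reads in DMSO and 12 in EA, CSF1R 8 and 99, and MS4A1 0 and 2. Some genes listed at 0, such as CD68, are widely expressed, so a listed 0 need not mean absence. Summed levels of enterocyte markers were 368 to 384 CPM in DMSO and 29.3 to 35.3 in EA. Most of that sum came from VIL1, which fell from 370 ± 8.27 to 24.9 ± 1.88 CPM. FABP2 fell too (5.54 ± 0.275 to 2.78 ± 0.587 CPM). APOA4 was called higher (2.30 ± 0.654 to 5.21 ± 3.01 CPM), with groups that overlapped. Summed levels of stellate cell, leukocyte and endothelial markers were at most 17.7 CPM in any library.

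EA went with lower levels of the receptor, its repressor partner, both measurable canalicular transporters and both conjugation enzymes, and with higher levels of both subunits of the basolateral exporter. The canalicular pump ABCB11 and the uptake carrier SLC10A1 had at most 9 reads in any library. Of the 8 genes above the filter on low counts, the quasi-likelihood test of edgeR (Benjamini-Hochberg adjusted over all genes) called 8 at an adjusted p under 0.05, 6 lower and 2 higher with EA, and 81.0% of the 15648 genes tested were called, 40.5% lower and 40.5% higher. The 3 EA values lay outside the range of the 3 DMSO values for 8 of these 8 genes and for 82.9% of all tested genes. Since the genes were listed with this contrast known, nothing is read from those counts. Higher and lower mean relative to the rest of the library. Fewer cells expressing a gene cannot be told apart from less RNA per cell.

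**Figure D1:**
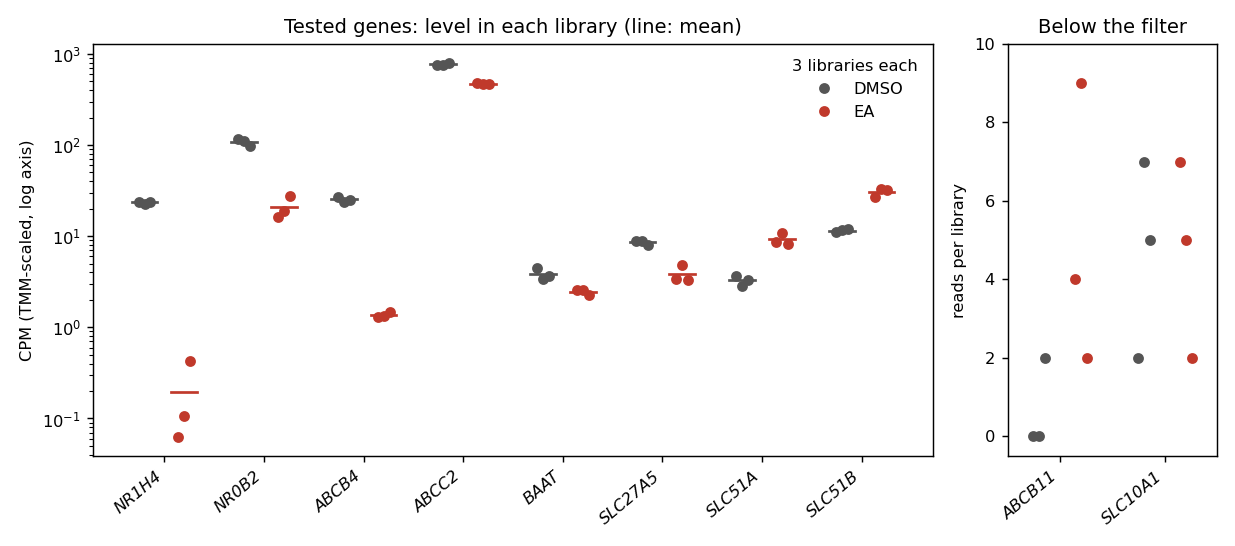
Level of each gene in each library. Left, CPM on a log axis for the 8 tested genes, with 3 DMSO libraries (grey) and 3 EA libraries (red) per gene and a line at each mean. Right, reads per library on a linear axis for the 2 genes below the filter. NR1H4 goes from about 23.4 CPM to between 0.0622 and 0.423, and SLC51A and SLC51B are the tested genes with higher EA points.

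NR1H4 (ENSG00000012504) was close to undetected with EA. Reads numbered 616, 513 and 610 in DMSO replicates 1 to 3 and 1, 2 and 8 in EA replicates 1 to 3. The corresponding levels were 24.0, 22.3 and 24.0 CPM against 0.0622, 0.106 and 0.423 CPM. The groups were far apart, and EA replicates 1 and 2 were under the limit that 3 reads set. The ratio of summed reads, EA over DMSO, was 0.00870, with a 95% exact counting interval of 0.00434 to 0.0156. By fitted log2 fold change NR1H4 stood at rank 13 from the lowest of 15648 genes. EA replicate 3 held 8 of the 11 EA reads, and without that library the log2 fold change was -8.03 in place of -6.80.

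NR0B2 (ENSG00000131910), which encodes SHP, fell less than its activator and stayed measurable. Its levels were 117, 109 and 97.5 CPM in DMSO and 16.3, 19.0 and 27.3 CPM in EA, a log2 fold change of -2.37 (SE 0.18). The lowest DMSO value was above the highest EA value, and EA replicate 3 was again the EA library nearest to DMSO. Within each library, the level of NR0B2 per transcript length was 11.5 ± 1.19 times that of NR1H4 in DMSO (SD, n = 3). With EA that ratio was 654, 447 and 161 in replicates 1 to 3, a spread set by the few NR1H4 reads.

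**Figure D2:**
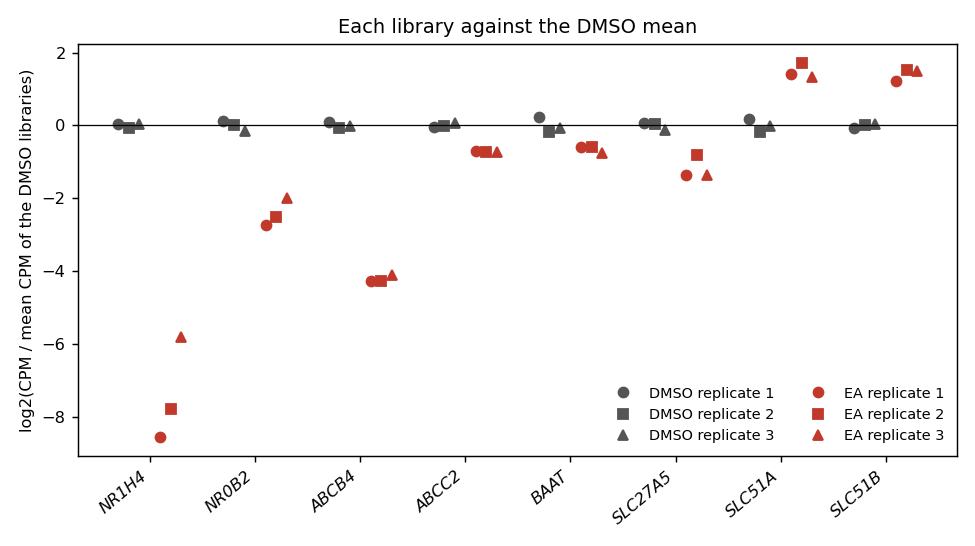
Each library against the mean of the DMSO libraries, as log2 of the CPM ratio, for the 8 tested genes. Shapes mark the replicate number, grey is DMSO and red is EA. EA replicate 3 (red triangles) lies nearest to DMSO for NR1H4, NR0B2, ABCB4 and SLC51A, while the ABCC2 points of the EA libraries nearly coincide.

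The canalicular transporters differed widely in size of change. ABCB4 (ENSG00000005471), the floppase that supplies phosphatidylcholine to bile, had levels of 27.1, 24.0 and 25.1 CPM in DMSO and 1.31, 1.32 and 1.48 CPM in EA. Its EA libraries agreed within a coefficient of variation of 6.94%, and the mean was 18.5-fold lower (log2 fold change -4.20, SE 0.14). ABCC2 (ENSG00000023839), the pump for conjugated organic anions such as bilirubin glucuronides, was the most abundant of the 10 genes. It had 749, 753 and 800 CPM in DMSO and 475, 465 and 466 CPM in EA, a log2 fold change of -0.71 (SE 0.06). The groups did not overlap, yet ABCC2 alone still gave 86.0% to 88.8% of the reads of all 10 genes in EA, against 79.2% to 82.2% in DMSO. Per transcript length, ABCC2 was 22.3 ± 1.68 times as abundant as ABCB4 in DMSO and 252 ± 18.6 times in EA.

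ABCB11 (ENSG00000073734), the bile salt export pump whose promoter is printed above, had 0, 0 and 2 reads in DMSO and 4, 9 and 2 reads in EA. All DMSO libraries and EA replicate 3 were under the limit set by 3 reads. The ratio of summed reads was 10.3 with a 95% exact counting interval of 2.40 to 93.0, which covers counting error only. The gene was too low for the filter. In the fit of edgeR with no filter it was called higher (log2 fold change 2.99, SE 0.97, adjusted p = 0.00517). That fit called 14923 of 32015 genes. EA replicate 3 and DMSO replicate 3 had the same 2 reads of ABCB11, so the call rests on very few reads. SLC10A1 (ENSG00000100652), the sodium-dependent carrier that takes bile acids up from blood, had 2, 7 and 5 reads in DMSO and 7, 5 and 2 reads in EA. Its groups overlapped, and the ratio of 1.38 had an interval of 0.608 to 3.11, so a difference was not detectable at this depth.

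SLC51A and SLC51B, whose products pair to form the basolateral exporter, were the members above the filter that were higher with EA. SLC51A (ENSG00000163959) had 3.70, 2.87 and 3.26 CPM in DMSO and 8.65, 10.8 and 8.24 CPM in EA (log2 fold change 1.49, SE 0.16). SLC51B (ENSG00000186198) had 11.0, 11.6 and 11.9 CPM in DMSO and 26.8, 32.8 and 32.5 CPM in EA (1.42, SE 0.10). Every EA value was above every DMSO value for both subunits. The level of SLC51B over that of SLC51A, per transcript length, was 5.53 ± 0.846 in DMSO and 5.23 ± 0.788 in EA (SD, n = 3), so the ratio of the subunits differed between groups by less than its spread. Both genes overlap an exon of a gene on the opposite strand in GENCODE 29, and the labels do not state whether reads were counted by strand. SLC51A shares 389 bases with PCYT1A, which had 1871 to 2781 reads per library, and SLC51B shares 60 bases with RASL12, which had 2 to 14. The part of these overlaps in the counts was not tested.

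SLC27A5 and BAAT act one after the other in conjugation, first joining bile acids to coenzyme A and then to glycine or taurine. SLC27A5 (ENSG00000083807) had 8.95, 8.92 and 7.94 CPM in DMSO and 3.36, 4.87 and 3.33 CPM in EA (log2 fold change -1.15, SE 0.16). BAAT (ENSG00000136881) had 4.52, 3.35 and 3.62 CPM in DMSO and 2.55, 2.54 and 2.27 CPM in EA (-0.64, SE 0.19). For BAAT the lowest DMSO value was near the highest EA value, with a DMSO SD of 0.611 CPM. SLC27A5 shares 1131 exon bases with ZNF446 on the opposite strand, whose reads numbered 151 to 157 with DMSO and 54 to 82 with EA, and the part of this overlap was not tested.

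**Figure D3:**
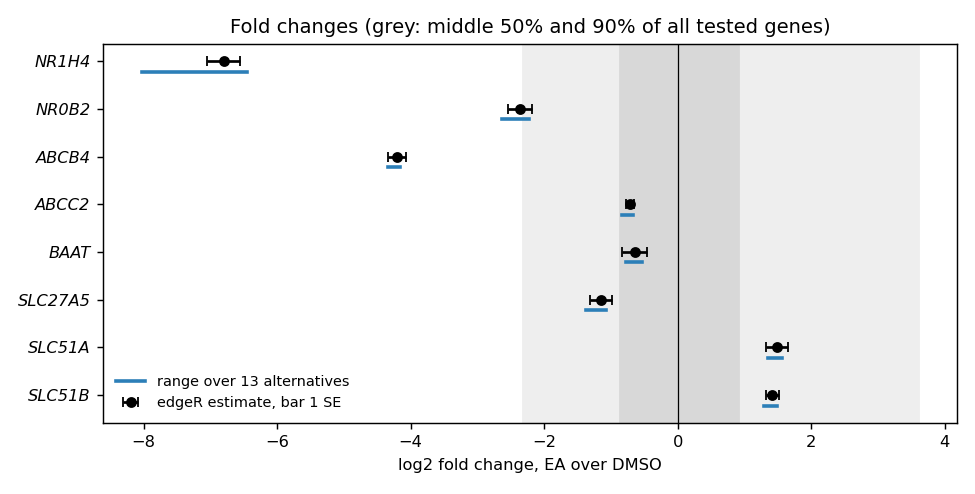
Log2 fold change of EA over DMSO for the 8 tested genes from edgeR (black points, bars of 1 SE), with the range over 13 alternative analyses (blue) and, in grey, the middle 50% and 90% of all tested genes. NR1H4 at -6.80 and ABCB4 at -4.20 lie below the middle 90%, and NR0B2 at -2.37 lies just past its edge. SLC51A at 1.49 and SLC51B at 1.42 lie inside it.

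Set against all tested genes, 90% of which had log2 fold changes between -2.32 and 3.61, only NR1H4, NR0B2 and ABCB4 among the 8 lay outside. NR0B2, at -2.37 (SE 0.18), was only just outside, and its range over the 13 alternatives, -2.63 to -2.23, spanned -2.32. ABCC2 and BAAT lay within the middle 50%, from -0.86 to 0.92. The order of levels also changed. Per kilobase of the longest coding transcript, DMSO levels ran from ABCC2 (132 ± 4.88 CPM per kb) through NR0B2 (93.4 ± 8.47), SLC51B (12.2 ± 0.491), NR1H4 (8.12 ± 0.334), ABCB4 (5.95 ± 0.365), SLC27A5 (3.64 ± 0.243) and SLC51A (2.24 ± 0.283) to BAAT (1.13 ± 0.181). No neighbours in that order overlapped between their libraries. With EA the order was ABCC2 (80.8 ± 0.946), SLC51B (32.7 ± 3.58), NR0B2 (18.0 ± 4.95), SLC51A (6.31 ± 0.942), SLC27A5 (1.63 ± 0.374), BAAT (0.727 ± 0.0470) and ABCB4 (0.321 ± 0.0223). NR1H4 then lay among the 2 genes below the filter, its values overlapping those of SLC10A1 and ABCB11. With the length of all exons merged in place of 1 transcript, SLC27A5, SLC51A and BAAT changed places in DMSO, and SLC27A5 and BAAT in EA.

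Genes with the profile most like that of NR1H4 encode enzymes, transporters and a plasma protein. Among 13555 genes with a mean of at least 1 CPM, the 5 nearest by Euclidean distance of centred log2 CPM over the 6 libraries were the hydroxyproline dehydrogenase PRODH2 (distance 0.59), the dicarboxylate transporter SLC13A3 (0.79), the protease inhibitor SERPINA3 (1.06), the alcohol dehydrogenase ADH4 (1.138) and the amino acid transporter SLC38A11 (1.15). Their log2 fold changes ran from -6.60 for ADH4 to -5.60 for SLC38A11, so likeness here mostly means a large difference between the groups.

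Other genes of the pathway were counted in 6 lists chosen by known role. Of 81 distinct genes, 66 were tested, 14 were higher and 48 lower with EA, and 4 were not called. In the same fit 40.5% of all tested genes were higher and 40.5% lower, with a median log2 fold change of 0.004. Counts below come from that edgeR fit, with p adjusted over all 15648 genes.

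**Figure D4:**
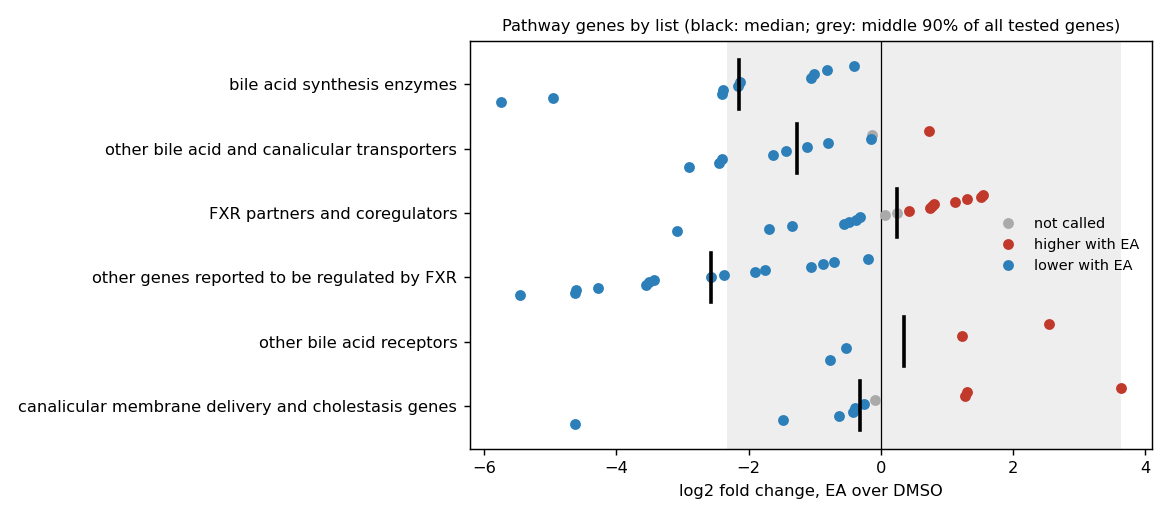
Log2 fold change of EA over DMSO for each tested gene of the 6 pathway lists, red where called higher, blue where called lower and grey where not called. The black bar is the list's median and the grey band the middle 90% of all tested genes. All tested genes of bile acid synthesis and all of the genes reported to be regulated by FXR lie left of 0, and the coregulators lie on both sides.

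Bile acid synthesis genes fell in 10 of 10 tested cases, with a median log2 fold change of -2.15. AKR1D1, the steroid 5β-reductase of the pathway, had 12.3 ± 1.10 CPM in DMSO and 0.218 ± 0.0964 in EA (log2 fold change -5.75, SE 0.24). The peroxisomal side-chain enzymes ACOX2 and HSD17B4 had log2 fold changes of -2.13 (SE 0.10) and -2.40 (SE 0.12), and SCP2, the thiolase of the same step, one of -1.05 (SE 0.09). CYP7A1, the rate-limiting enzyme that SHP represses, and CYP8B1, which directs synthesis to cholic acid, were picked after their values were seen. CYP7A1 was low in both groups, at 1.08 ± 0.255 CPM in DMSO and 0.194 ± 0.170 in EA (-2.39, SE 0.50). CYP8B1 had 227 reads in DMSO and 5 in EA, summed over libraries (-4.96, SE 0.50). All 5 of those EA reads came from replicate 3, and without it the fitted value was -9.07, which rests on 0 reads and is no bound. CYP7B1, CYP46A1, CYP39A1, CH25H and HSD3B7 were below the filter. The 6 hepatocyte markers fell as well, and their part in this result was not tested.

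Of 15 other bile acid and canalicular transporters, 10 were tested, 8 fell, 1 rose and 1 was not called (median -1.27). One that fell, ABCB1 (-0.16, SE 0.07), lost its call in 8 of 13 alternatives. The sterol exporter subunits ABCG5 and ABCG8 went from 19.7 ± 1.87 to 3.72 ± 0.0719 CPM and from 15.6 ± 1.18 to 2.08 ± 0.184 CPM. The xenobiotic exporter ABCG2 had a log2 fold change of -1.63 (SE 0.10) and the epoxide hydrolase EPHX1 one of -1.11 (SE 0.09). The gene that rose was ABCC4, a basolateral exporter, named after its value was seen. It had 21.7 ± 0.607 CPM in DMSO and 35.7 ± 11.6 in EA, an adjusted p of 0.0155 in edgeR's test, and one of 0.0555 without DMSO replicate 1. ABCC3, another basolateral exporter of this list and also named by its value, fell from 101 ± 7.04 to 37.6 ± 9.29 CPM (-1.43, SE 0.16). TMEM30A, the partner of canalicular flippases, stood at -0.13 (SE 0.09) and was not called. It was called without EA replicate 3, at -0.27, and with no filter, at -0.26. SLCO1B1, SLCO1B3, SLCO1A2, SLC10A2 and FABP6 were below the filter.

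Partners and coregulators of FXR were split, with 8 higher, 7 lower and 2 not called of 17 tested (median 0.25). The coactivator PPARGC1A fell from 53.4 ± 2.59 to 6.30 ± 0.784 CPM. The histone acetyltransferase EP300, the histone methyltransferase KMT2C and the coactivator NCOA6 rose, with log2 fold changes of 1.54 (SE 0.07), 1.52 (SE 0.06) and 1.30 (SE 0.06). RXRA, the usual dimer partner of FXR, had 93.6 ± 4.26 CPM in DMSO and 97.5 ± 1.15 in EA (0.06, SE 0.06) and was not called. NR5A2, an orphan receptor that SHP inhibits, was not called either (0.25, SE 0.40), and it stood at -0.47 without EA replicate 3. RXRG was below the filter.

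Of 18 other genes reported to be regulated by FXR, 15 were tested and 15 fell, with a median log2 fold change of -2.56. This list holds FGA, which is also among the hepatocyte markers, and much of it is typical of hepatocytes. It does not record whether FXR raises or lowers each gene, and the part of FXR in these falls was not tested. SULT2A1, which sulfates bile acids, fell by 5.46 on the log2 scale (SE 0.10). FGFR4, the receptor through which FGF19 lowers bile acid synthesis, had 293 ± 13.7 CPM in DMSO and 49.5 ± 1.56 in EA. The fibrinogen chain FGB and the glucuronosyltransferase UGT2B4 had log2 fold changes of -4.28 (SE 0.12) and -3.51 (SE 0.21). FGF19, CYP3A4 and MAFG were below the filter, and MAFG, a widely expressed gene, was listed at 0 reads in all libraries, which need not mean that it was not expressed.

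Of 5 other bile acid receptors, 2 rose and 2 fell. The vitamin D receptor VDR went from 0.231 ± 0.0653 to 1.36 ± 0.291 CPM and the sphingosine phosphate receptor S1PR2 from 0.639 ± 0.126 to 1.47 ± 0.667, so both stayed low. The xenobiotic receptors NR1I2 and NR1I3 had log2 fold changes of -0.52 (SE 0.09) and -0.77 (SE 0.29). The call of NR1I3 was lost without EA replicate 1 (adjusted p = 0.0941 in edgeR's test), without DMSO replicate 3 (0.0892) and in DESeq2 (0.0612). GPBAR1 was below the filter.

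Genes of canalicular membrane delivery and inherited cholestasis rose in 3 of 10 cases and fell in 6 (median -0.32). The tight junction regulator USP53 rose from 34.5 ± 2.17 to 430 ± 26.9 CPM, and the membrane linker EZR and the motor MYO5B had log2 fold changes of 1.29 (SE 0.07) and 1.27 (SE 0.07). SLC9A3R1, a scaffold of apical transporters, fell from 308 ± 6.54 to 110 ± 6.54 CPM. VIPAS39 was not called (-0.09, SE 0.10).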

How the data were processed

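RNA-seq counts were analysed for 6 HepG2 libraries, 3 with EA and 3 with DMSO. The authors deposited raw read counts per gene, whole numbers that are not normalised. The tools listed are HTSeq 0.6.1, HISAT, cutadapt 1.9.1 and bcl2fastq 2.17.1.14, with the hg19 build, per the submitters' processing notes. Annotation, strand setting and filters: not given in the sources used here. Columns were matched to samples by name.

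Genes were filtered with filterByExpr, which left 15648 of 52408, scaled by TMM and tested with edgeR 4.0.16 in R 4.3.3 (quasi-likelihood F test, robust) with Benjamini-Hochberg adjustment over all tested genes and a threshold of 0.05. SEs of log2 fold changes were computed as |log2 fold change| / √F. Intervals of count ratios are exact 95% intervals and, like the floor of 3 reads, cover counting error only. The test was checked on simulated data. Transcript lengths and overlaps are those of GENCODE 29 (GRCh38). Since the submitters name hg19, no coordinates are given for the counted genes. Promoters and their printed coordinates are from RefSeq (GRCh38.p14), a different build from the one named for the counts.

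The genes and lists were chosen with earlier results of these data known. Named genes were all 10 members, in each list the 4 called genes with the smallest p and those not called, and the 5 profiles nearest to NR1H4. Outside this rule, CYP7A1, CYP8B1, ABCC3, ABCC4, ABCB1, FGA, APOC2 and KIF12 were also named. So were cell type markers and genes below the filter. The alternatives were DESeq2 1.42.0, RLE and library-size scaling, 2 other filters, a replicate block, thinning to equal depth and each library left out. Replicates of one group differed by more than sampling noise. Chi-square per degree of freedom was 3.31 to 4.22 for pairs of DMSO libraries and 3.55 for EA replicates 1 and 2. For EA replicate 3 it was 11.9 against replicate 1 and 13.8 against replicate 2. All libraries were kept.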

Additional observations from a re-analysis of the deposited data

How the results depend on the processing

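The 8 tested members kept their direction and their call in all 13 alternatives, and the counts of called genes stayed within 1.5 times of those given, over all genes (11622 to 14923), for the members (8 to 9) and for each list. The ninth member called was ABCB11, in the fit with no filter, where SLC10A1 was not called (0.32, SE 0.66). Log2 fold changes ranged from -8.03 to -6.45 for NR1H4, -2.63 to -2.23 for NR0B2, -4.33 to -4.16 for ABCB4, -0.84 to -0.67 for ABCC2, -0.78 to -0.54 for BAAT, -1.37 to -1.07 for SLC27A5, 1.35 to 1.56 for SLC51A and 1.29 to 1.495 for SLC51B. Among list genes, RXRA turned to -0.072 with no filter, and NR5A2 ranged from -0.47 to 0.50 with 1 library left out; the cause was not tested. Without EA replicate 3, FGA and APOC2 stood at -5.22 and -2.51 in place of -4.61 and -1.91. The replicate numbers are not said to pair libraries, and deviations of same-numbered libraries from their group means correlated at -0.084, 0.027 and -0.015. With the replicate block 12537 genes and 8 members were called, and not every library correlated best with its own number. Depth limits ABCB11, SLC10A1 and the EA level of NR1H4.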

Other observations

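Some genes below the filter, chosen once their values were known, had more reads with EA. Summed over libraries, the uptake carrier gene SLCO1B3 had 0 reads in DMSO and 19 in EA, and its relative SLCO1A2 had 0 and 8. The bile acid receptor gene GPBAR1 had 14 reads with DMSO and 65 with EA. In the other direction, the oxysterol hydroxylase gene CYP39A1 had 15 reads with DMSO and 1 with EA, and FGF19, the hormone through which FXR in the gut signals to the liver, had 30 and 7. All were too low for the filter. In the fit of edgeR with no filter, 14923 of 32015 genes were called. SLCO1B3, SLCO1A2 and GPBAR1 were called higher there (adjusted p = 1.39e-05, 0.00937 and 7.02e-08). CYP39A1, FGF19 and CYP3A4 were called lower (0.012, 0.0177 and 0.0391). CYP7B1, CYP46A1, HSD3B7, SLCO1B1, FABP6 and RXRG were not called. For NR1H4 that fit gave an adjusted p of 1.25e-207, against 1.68e-12 with the filter, so its p-values are not on the scale of those above. KIF12, a kinesin gene linked to inherited cholestasis also chosen by its value, had 315 reads in DMSO and 9 in EA (log2 fold change -4.62, SE 0.31).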
